A study of Arabidopsis thaliana with 24 samples.

Results

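Seedlings of the Arabidopsis jaz9-1 mutant were treated with compound 2, which is coronatine, and their transcripts were compared across all genes with those of jaz9-1 seedlings given medium alone (mock). The comparison holds 6 of the 24 RNA-sequencing libraries of the series, 3 biological replicates of 2-treated jaz9-1 and 3 of mock-treated jaz9-1, each a pool of 5 to 8 whole seedlings. Of the 27416 genes in the count table, 20109 had enough reads to be tested. All seedlings were 6 days old, of the Col-0 ecotype background, grown in liquid medium, and collected 8 h after treatment at a dose of 1 µM. jaz9-1 carries a T-DNA insertion at JAZ9, and every jaz9-1 seedling used here carries it, mock included, so a difference between 2 and mock is a response within the mutant. Further libraries served as points of comparison, 3 each: jaz9-1 given compound 2e, a stereoisomer of coronatine, jaz9-1 given the derivative 12, wild-type Col-0 given 2, and mock-treated Col-0. These, and Col-0 given 2e or 12, also entered the statistical fit, so that all 24 libraries shared its estimate of the spread. The doses and times were the same for all compounds. Whole seedlings mix root and shoot, so that a change in the number of cells of a type and a change in RNA per cell cannot be told apart.

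Jasmonate is a lipid-derived hormone of wounding and defence. Its conjugate with isoleucine, which coronatine from the bacterium Pseudomonas syringae mimics, holds the F-box protein COI1 and a JAZ repressor together, and the JAZ protein is then degraded. Loss of JAZ frees MYC2 and related transcription factors, which bind G-box sequences and switch on defence genes, the genes of jasmonate synthesis and breakdown, and the JAZ genes themselves.

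Jasmonate synthesis and turnover, JAZ repressors, insect defence proteins, beta-glucosidases of the ER body, indolic glucosinolate synthesis and sulfate assimilation were higher in most of their genes in 2-treated jaz9-1 seedlings, while 18 of 27 xyloglucan endotransglucosylases, which act on the cell wall, were lower, as were smaller shares of the DNA replication and suberin genes. Of the 20109 genes, 3006 (14.9%) were higher and 2859 (14.2%) were lower at a false discovery rate below 0.1 by edgeR's quasi-likelihood test with Benjamini-Hochberg adjustment, which is what higher, lower, rose and fell mean throughout. With at least a 2.5-fold change as well, 986 genes (4.9%) were upregulated and 640 (3.18%) were downregulated. The median log2 fold change over all tested genes was -0.03, which the scaling of the libraries holds near 0. More rises than falls reached large folds: 294 upregulated genes reached 10-fold and 29 reached 100-fold, against 82 and 0 of the downregulated genes. Here the 68 genes with no reads in mock and the 60 with no reads in 2-treated seedlings are held at a bound of 3 reads in the group without reads. Without that bound the counts were 322 and 76, against 129 and 19. How far a fall can be measured is limited by the level in mock. A 100-fold fall from the median mock level of the downregulated genes would lie below 3 reads over the 2-treated libraries. The counts therefore do not compare rises and falls evenly. The 3 libraries of one treatment did not overlap the 3 of the other for 909 of the upregulated and 561 of the downregulated genes, beside 6163 of all 20109 genes (30.6%), and 852 of the upregulated and 418 of the downregulated genes passed the test with each of the 6 libraries left out in turn. A further count shows how concentrated the response was: upregulated genes took 15.9%, 14.4% and 14.9% of the reads in the 2-treated libraries, against 2.26%, 2.35% and 2.64% in mock, and the 20 with the largest gain accounted for 43.7% of that increase in CPM, the reads of a gene relative to the total of its library after scaling for composition.

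**Figure D1:**
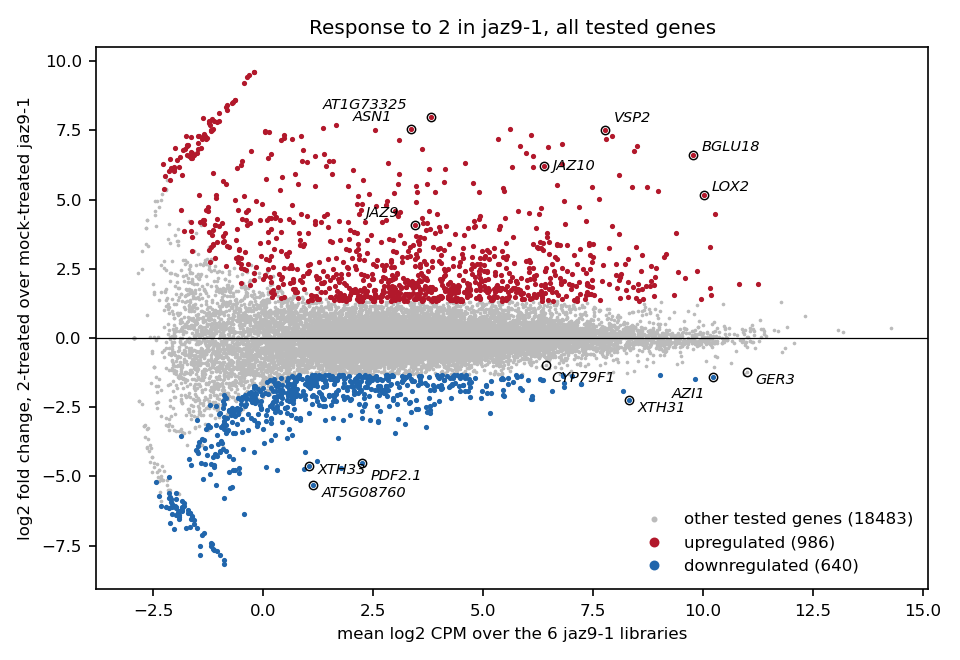
Log2 fold change of 2-treated over mock jaz9-1 seedlings (vertical axis) against the mean log2 CPM of the 6 libraries (horizontal axis), 1 point for each of 20109 genes. The 986 upregulated genes are red, the 640 downregulated ones blue and the other 18483 grey; the largest rises lie further from 0 than the largest falls, and the slanted arms at the low end are genes with no reads in 1 of the treatments.

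The 2-treated libraries held 17458833, 8428715 and 6226126 reads, against 6825267, 12966329 and 10234382 in mock, so that 3 reads over a whole treatment corresponded to 0.106 CPM with 2 and 0.0979 CPM in mock. Replicates correlated at 0.927 to 0.947 with 2 and at 0.947 to 0.959 in mock (Pearson's r of log2 CPM across genes, which are not independent). On the first principal component, with 49.4% of the variance, the treatments lay apart, and on the second (18.6%) the 2-treated replicates 2 and 3 lay on opposite sides at -69.5 and 74.5, with the other 4 libraries between -20.4 and 12.6. JAZ9 (AT1G70700, chromosome 1) was itself read in the mutant, at 37.4, 41.6 and 52.1 CPM with 2 and 3.62, 2.26 and 2.21 CPM in mock. The count table does not say which side of the insertion those reads came from, so they do not check the genotype. All 12 root and all 8 green tissue markers had reads, as whole seedlings should. The root markers summed to 6389 to 7175 CPM with 2 and 3601 to 4643 CPM in mock, nearly all of it PYK10, a beta-glucosidase of root ER bodies, while 2 of the 12 were higher and 2 lower. The green tissue markers summed to 31161 to 37745 CPM with 2 and 27547 to 28765 CPM in mock (3 of 8 higher), phloem and xylem markers to 206 to 265 CPM and 155 to 166 CPM (4 of 8 higher), and guard cell markers to 39.2 to 57.1 CPM and 44.9 to 56.4 CPM (1 of 6 lower). Seed storage genes summed to 18.5 to 33.3 CPM with 2 and 1.05 to 1.88 CPM in mock, 1 of 5 tested being higher, the seed albumin SESA1 at 29.6, 18.0 and 30.2 CPM with 2 and 0.869, 0.226 and 0 CPM in mock, while the other members were at or near 0 in all 6 libraries (OLEO2 at 0). The pollen and flower markers summed to 12.4 to 17.0 CPM with 2 and 16.8 to 19.2 CPM in mock, with 1 of 4 tested lower (SEP3) and MS1 at 0. The part of these marker changes in the results was not tested.

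The letters to which MYC factors bind stood before a larger share of the upregulated genes than of all tested genes. Windows of up to 12 bases on each side of a match, for repressors, enzymes, a regulator and defence genes described below, are shown because they place the motif before the start of genes that rose together. The sequences are those of RefSeq's TAIR10.1 assembly, 5′ to 3′ on the gene's strand, and the capitals mark CACGTG (G-box) or its variant AACGTG (T/G-box), which reads CACGTT on the other strand.
JAZ2 promoter, chr1:28150495-28150524, minus strand: attaaattaaaaCACGTGttttaaatgtct
JAZ8 promoter, chr1:10596330-10596351, plus strand: aaaaacattttcCACGTGagag
AOS promoter, chr5:17099596-17099613, minus strand: aaagagtcaaagCACGTG
JOX3 promoter, chr3:20769441-20769470, minus strand: aactgttgtaaaAACGTGtaccactacaaa
MYC2 promoter, chr1:11801505-11801534, minus strand: ttagcaacgactCACGTTatatagatatgc
VSP1 promoter, chr5:8509354-8509383, minus strand: gtttatacacatCACGTTttgcattattgt
NATA1 promoter, chr2:16298005-16298034, plus strand: atcacctaatttAACGTGtaaaacatgaca
CACGTG stood within 300 bases before the annotated start of 137 of 980 upregulated genes (14.0%), of 5.66% of the downregulated genes and of 7.97% of all 19921 tested genes with a window. AACGTG on either strand stood before 21.2% of the upregulated, 8.18% of the downregulated and 8.75% of all genes. Either motif was present for 32.9% of upregulated genes and for 47.0% of the 100 genes with the largest rise, against 15.8% of all genes. The windows above are only of genes with a match. JAZ1, JAZ10, LOX2, JOX4, CYP94C1 and VSP2, which also rose, had neither motif within those 300 bases. GGCCCA, a motif of ribosomal and growth genes, stood before 7.14% of upregulated, 8.65% of downregulated and 17.1% of all genes, but before 12.1% of all genes that were higher and 18.3% of all that were lower, whatever their fold. In upregulated, downregulated and all genes the W-box core TTGACN stood at 51.7%, 51.1% and 50.2%, and the GCC-box core GCCGCC at 2.45%, 1.42% and 2.37%. A match describes the letters in the window and does not show that a factor binds there.

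Nearly the whole JAZ family rose. Of 13 JAZ genes, 11 were higher and none was lower, with a median log2 fold change of 4.06. JAZ10, whose splice forms resist degradation, was read at 589, 839 and 730.2 CPM with 2, against 11.4, 10.1 and 8.06 CPM in mock. JAZ1 was read at 466, 514 and 479 CPM with 2, against 30.8, 25.4 and 28.8 CPM in mock. All 2-treated libraries lay above all mock libraries for both genes, and edgeR's quasi-likelihood test gave log2 fold changes of 6.20 ± 0.18 (SE, adjusted p = 3.7e-23) and 4.11 ± 0.11 (adjusted p = 1.5e-24). JAZ8, a repressor that lacks the usual degron, rose by 6.79 ± 0.66 on the log2 scale (16.1 ± 6.05 CPM with 2 and 0.193 ± 0.334 CPM in mock, SD, n = 3 each), JAZ7 by 5.93, JAZ5 by 5.56 and JAZ12, the smallest rise, by 1.09. JAZ4 and JAZ11 did not pass (log2 0.42 and 0.49, adjusted p = 0.49 and 0.21), although JAZ11 passed without 2 replicate 3 (adjusted p = 0.036). JAZ9 rose 16.7-fold in the mutant that carries the insertion in it (log2 4.06 ± 0.22, adjusted p = 6.2e-16). Its neighbours on the chromosome rose less, HWI1 by 0.93 and GH9B1 by 0.47 on the log2 scale. The call for HWI1 was lost without mock replicate 1 (adjusted p = 0.11) or mock replicate 2 (adjusted p = 0.11), and that for GH9B1 without 2 replicate 2 (adjusted p = 0.11) or 2 replicate 3 (adjusted p = 0.19) or mock replicate 2 (adjusted p = 0.18).

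Genes of the enzymes that make jasmonate rose together with those of the enzymes that take it apart. In synthesis, 13 of 14 genes were higher and none lower (median log2 2.80). LOX2, the chloroplast lipoxygenase, had the second largest gain of any gene, with 6935, 5944 and 5706 CPM with 2, against 153, 176 and 194 CPM in mock. AOS, allene oxide synthase, was read at 2229.6, 1965 and 2445 CPM with 2, against 46.0, 55.8 and 50.3 CPM in mock. The groups were far apart for both, and LOX2 rose 35.5-fold (adjusted p = 1.8e-23) and AOS 43.5-fold (adjusted p = 6.3e-25) by edgeR's quasi-likelihood test. Each of the 4 allene oxide cyclase genes rose, AOC1 by 5.47, AOC2 by 4.46, AOC4 by 2.42 and AOC3 by 1.06 on the log2 scale, as did the reductase OPR3 (3.46) and the peroxisomal oxidase ACX1 (1.85). JAR1, which joins jasmonate to isoleucine, rose by 0.38, a call lost without mock replicate 2 (adjusted p = 0.30), and ACX5 did not pass (log2 0.07).

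In turnover, all 11 genes were higher, with a median log2 fold change of 5.53. JOX4 and JOX3, oxygenases that hydroxylate jasmonate, were among the largest rises of all. JOX3 was read at 607, 1099 and 882 CPM with 2, against 6.95, 5.26 and 4.22 CPM in mock. JOX4 was read at 270.2, 1301 and 586 CPM with 2, against 4.49, 3.16 and 4.12 CPM in mock. No 2-treated library came near a mock library, and the rises were 161-fold and 187-fold. CYP94B3 and CYP94C1, which oxidise the active conjugate, rose by 5.50 and 5.56 on the log2 scale, the amidohydrolases IAR3 and ILL6 by 3.36 and 4.04, and ST2A, a sulfotransferase of hydroxylated jasmonate, by 4.48. JMT, which methylates jasmonate, and JOX1 had no reads in mock and averaged 6.28 ± 3.78 and 5.60 ± 3.63 CPM with 2 (SD, n = 3), at least 64.2-fold and 57.1-fold higher.

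Receptor components moved little. Of 6 genes of the receptor and corepressor, NINJA, the adaptor between JAZ proteins and the corepressor, rose by 1.45 ± 0.10 and ASK1, a subunit of the COI1 ubiquitin ligase, by 0.52 ± 0.07 on the log2 scale, and COI1 (-0.38), TPL (0.00), HDA19 (0.19) and MED25 (0.11) did not pass. COI1 passed as lower without 2 replicate 3 (log2 -0.55, adjusted p = 0.040) or mock replicate 3 (log2 -0.48, adjusted p = 0.091). Among bHLH factors, 5 of 9 were higher and none lower. MYC2 was read at 245, 206 and 227 CPM with 2, against 24.5, 21.4 and 19.4 CPM in mock, with no overlap, and rose by 3.39 ± 0.13 on the log2 scale (adjusted p = 4.1e-20, edgeR's quasi-likelihood test). Its antagonists JAM1 and JAM2 rose by 2.88 and 0.88. MYC3 (0.88) and JAM3 (0.42) passed as well, but MYC3 not without 2 replicate 3 (adjusted p = 0.16) or mock replicate 3 (adjusted p = 0.12), and JAM3 not without 2 replicate 1 (adjusted p = 0.13) or 2 replicate 2 (adjusted p = 0.15) or 2 replicate 3 (adjusted p = 0.13) or mock replicate 3 (adjusted p = 0.34). MYC4 did not pass (log2 0.32), although it passed without mock replicate 1 (adjusted p = 0.076).

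**Figure D2:**
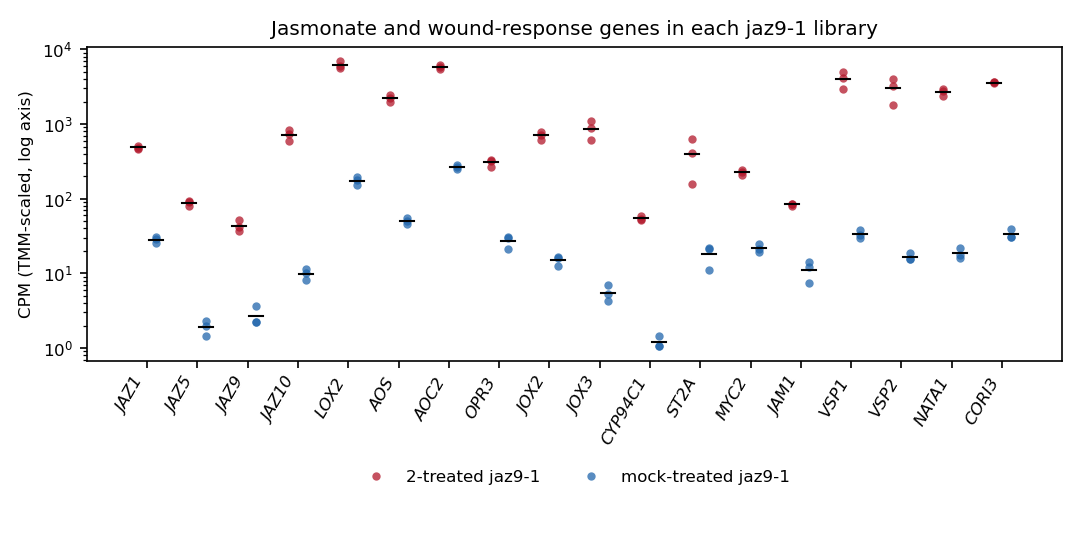
CPM on a log axis for 18 genes of the jasmonate pathway and insect defence, 1 point per library, with 2-treated jaz9-1 in red on the left and mock in blue on the right of each gene, and a bar at the mean of 3. The treatments overlap in none of the 18 genes; AOS, for instance, averages 2214 ± 240.5 CPM with 2 and 50.7 ± 4.89 CPM in mock.

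Genes of proteins that act against chewing insects rose. All 9 tested members of the list of wound and insect defence proteins were higher, with a median log2 fold change of 6.37, beside 14.9% of all genes. VSP2, a vegetative storage protein with phosphatase activity, was read at 4028, 1821 and 3249 CPM with 2, against 18.7, 15.7 and 15.7 CPM in mock. VSP1 was read at 5011, 2982 and 4104 CPM with 2, against 37.6, 29.5 and 32.9 CPM in mock. Every 2-treated library lay far above the highest mock library for these neighbours on chromosome 5, with rises of 7.52 ± 0.25 and 6.93 ± 0.20 on the log2 scale (adjusted p = 9.3e-22 and 1.8e-23, edgeR's quasi-likelihood test). The 2 genes are close in sequence, as are members of the PDF1, AOC, NIT, XTH, GST and RBCS families, and reads shared between such copies could be assigned to either.

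NATA1, which acetylates ornithine, rose 147-fold, ARGAH2, an arginase, 44.2-fold, ADC2, which decarboxylates arginine, 9.81-fold, and the thionin THI2.1 82.6-fold. CORI3, a cystine lyase named for its induction by coronatine, had the lowest adjusted p of all genes (1.4e-26, edgeR's quasi-likelihood test), at 3607, 3604 and 3496 CPM with 2, against 38.9, 30.9 and 31.0 CPM in mock. The trypsin inhibitor KTI1 rose by 3.46 ± 0.26 on the log2 scale, and the protease inhibitor UPI by 2.66. The single largest rise among genes read at a mean of at least 1 log2 CPM was AT1G73325, at 222, 154 and 253 CPM with 2, against 1.3, 0.526 and 0.863 CPM in mock, or 252-fold. Next to it stood UGT76E12, a glycosyltransferase (7.68 on the log2 scale), AT3G44870 (7.57), ASN1, asparagine synthetase (7.53), AT1G66100 (7.51), AT3G28220 (7.29) and AT1G14250 (7.18). Terpene genes rose with them, TPS04, which makes geranyllinalool, by 4.24 and the mevalonate pathway reductase HMG1 by 1.72.

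The ER body, an endoplasmic reticulum compartment that stores beta-glucosidases and that leaves of this species form after wounding, took the largest gain in reads of all. All 12 genes of its list were higher (median log2 1.97). BGLU18, the beta-glucosidase of induced ER bodies, was read at 10071, 6864 and 9198 CPM with 2, against 96.5, 86.5 and 87.7 CPM in mock, a 96.7-fold rise (adjusted p = 1.6e-25, edgeR's quasi-likelihood test). TSA1, a protein of the same bodies, was read at 1247, 920.2 and 826 CPM with 2, against 10.6, 15.1 and 12.0 CPM in mock. The groups did not overlap in either. The root ER body genes rose less, PYK10 by 0.80, its binding protein PBP1 by 1.29, BGLU21 by 2.05, BGLU22 by 2.93, and NAI1, the bHLH factor that drives them, by 1.79 on the log2 scale. The lectin JAL23 rose by 6.57 and the lectin JR1 by 5.31.

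Genes for glucosinolates, the sulfur-rich defence compounds of the cabbage family, divided by the amino acid that the compounds come from. Of 14 indolic genes, 12 were higher and 1 lower (median log2 1.8), whereas 5 of 13 aliphatic genes were higher and 4 lower (median log2 0.18). CYP79B3 and CYP79B2, which open the indolic pathway from tryptophan, were read at 336 ± 81.9 and 463 ± 87.6 CPM with 2, against 32.4 ± 3.65 and 69.6 ± 6.54 CPM in mock (SD, n = 3 each), and rose by 3.37 ± 0.15 and 2.74 ± 0.13 on the log2 scale. CYP83B1, the next step, rose by 2.84, the transferase GSTF9 by 1.94 and the sulfotransferase SOT16 by 1.66. CYP81F2, which modifies the indole ring in immunity against microbes, fell by 2.08 on the log2 scale, with 1.88, 0.518 and 0.571 CPM with 2, against 6.08, 5.26 and 3.45 CPM in mock. PEN2, the atypical myrosinase of the same branch, did not pass (log2 -0.09).

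CYP79F1, which opens the aliphatic pathway from chain-elongated methionine, was read at 70.2, 55.1 and 57.3 CPM with 2, against 124, 122 and 118 CPM in mock. The 2-treated libraries all lay below the mock libraries, and the fold change was -0.99 ± 0.10 on the log2 scale (adjusted p = 3.7e-09, edgeR's quasi-likelihood test). CYP83A1 (log2 -0.61) and the isomerase subunit IPMI1 (-0.63) fell too, whereas the sulfotransferase SOT17 (0.89) and the dehydrogenase IMD1 (0.47) rose. Of the MYB factors, MYB34, a regulator of the indolic branch, rose by 2.2 ± 0.16. MYB51, another regulator of that branch, fell with a log2 fold change of -1.02, a call lost without 2 replicate 1 (adjusted p = 0.13) or 2 replicate 3 (adjusted p = 0.16) or mock replicate 2 (adjusted p = 0.23), and MYB28, a regulator of the aliphatic branch, fell with -0.41, lost without 2 replicate 2 (adjusted p = 0.18) or 2 replicate 3 (adjusted p = 0.22) or mock replicate 2 (adjusted p = 0.21).

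Among the enzymes and specifier proteins that act on glucosinolates, 9 of 12 were higher and 1 lower. MBP1 and MBP2, myrosinase-binding proteins, rose by 6.90 and 6.33 on the log2 scale, the epithiospecifier ESP by 3.54, the nitrile specifier NSP1 by 2.17 and the myrosinase TGG2 by 1.33. ESM1, which favours isothiocyanates over nitriles, was the one that fell (log2 -0.87), and the root myrosinases TGG4 (0.02) and TGG5 (-0.22) did not pass.

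Genes for the supply of the precursors moved the same way. In sulfate assimilation, 15 of 16 genes were higher and none lower (median log2 1.46). APK1 and APK2, the kinases that make the sulfate donor for glucosinolates, rose by 1.960 ± 0.10 and 2.04 ± 0.11, the ATP sulfurylases APS1 and APS3 by 1.75 and 1.5, sulfite reductase SIR by 1.46, and GSH1 and GSH2, the enzymes of glutathione synthesis, by 1.45 and 1.99 on the log2 scale. SULTR1;1, a root sulfate importer, did not pass (log2 0.24). In tryptophan synthesis, 8 of 9 genes were higher (median log2 2.28), including ASA1, which commits chorismate to tryptophan (165 ± 24.1 CPM with 2 and 24.3 ± 3.99 CPM in mock, SD, n = 3 each, log2 2.77), TRP1 (2.32), IGPS (2.28) and TRP3 (2.68). PAI1 alone was lower (log2 -0.50), and its call was lost without 2 replicate 3 (adjusted p = 0.46) or mock replicate 1 (adjusted p = 0.13) or mock replicate 2 (adjusted p = 0.19) or mock replicate 3 (adjusted p = 0.14). Nitrilases next to each other on chromosome 3, NIT2 (2.24), NIT1 (1.93) and NIT3 (3.22), rose together.

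The branch of jasmonate signalling that works with ethylene against necrotrophic fungi, run by the factors ORA59 and ERF1, moved less evenly. Of its 14 genes, 7 were higher and none lower, with a median log2 fold change of 0.71. PDF1.2, the plant defensin that marks it, was read at 4.94, 21.3 and 31.2 CPM with 2, against 0.434, 1.43 and 0.863 CPM in mock, and rose by 4.17 ± 0.59 (adjusted p = 1.3e-06, edgeR's quasi-likelihood test). PDF1.2c, at 2.27, 5.05 and 10.1 CPM with 2 and 0.145, 0.451 and 0 CPM in mock, rose by 4.52. The hevein-like HEL rose by 0.95 although one 2-treated library fell within the mock range. PDF1.3 (1.49), PDF1.2b (1.91) and the acyltransferase AACT1 (1.03) passed only by a small margin: PDF1.3 was lost without 2 replicate 2 (adjusted p = 0.31) or 2 replicate 3 (adjusted p = 0.18) or mock replicate 1 (adjusted p = 0.13) or mock replicate 2 (adjusted p = 0.22), PDF1.2b without 2 replicate 2 (adjusted p = 0.60) or 2 replicate 3 (adjusted p = 0.16) or mock replicate 1 (adjusted p = 0.16) or mock replicate 3 (adjusted p = 0.29), and AACT1 without 2 replicate 2 (adjusted p = 0.37) or mock replicate 1 (adjusted p = 0.27) or mock replicate 3 (adjusted p = 0.12). ORA59 was read at 11.5, 17.2 and 10.7 CPM with 2, against 8.11, 10.9 and 4.79 CPM in mock, and did not pass (log2 0.71 ± 0.32, adjusted p = 0.11), although it passed without 2 replicate 1 (adjusted p = 0.090) or 2 replicate 3 (adjusted p = 0.097) or mock replicate 2 (adjusted p = 0.036). ERF1 (log2 0.70, adjusted p = 0.71) and the chitinase CHI-B (-0.28, adjusted p = 0.54) did not pass either. Without mock replicate 2, however, ERF1 passed as higher (log2 6.60, adjusted p = 0.036).

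**Figure D3:**
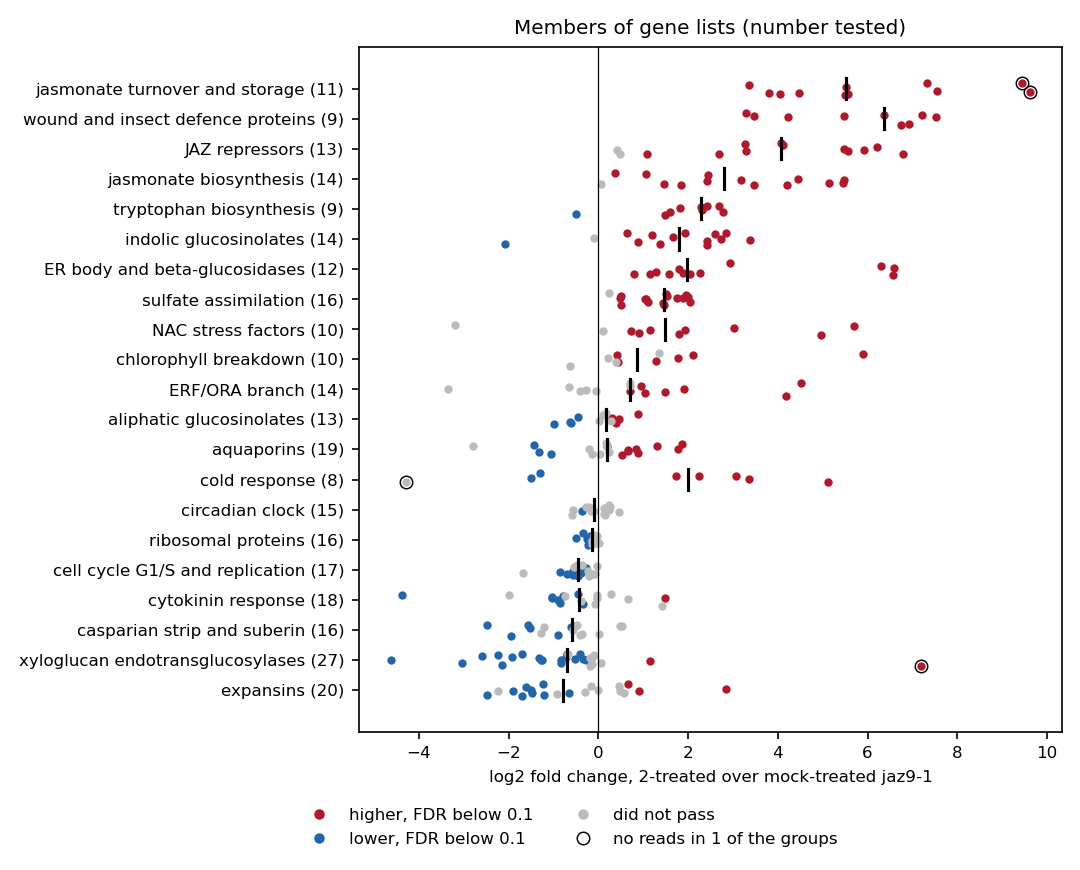
Log2 fold change of 2-treated over mock jaz9-1 seedlings for the members of 21 gene lists, 1 point per gene, red for higher, blue for lower and grey for genes that did not pass, with a bar at each list's median and a black ring where 1 treatment had no reads. Jasmonate turnover (median 5.53) and wound and insect defence (6.37) lie far to the right of 0, and xyloglucan endotransglucosylases (-0.69) and expansins (-0.79) lie to its left.

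Regulators and enzymes of stress and leaf senescence rose as well. Of 10 NAC factors, 8 were higher (median log2 1.48). NAC019 and NAC055, which act downstream of MYC2, averaged 43.3 ± 17.9 and 38.8 ± 7.14 CPM with 2, against 0.734 ± 0.638 and 1.22 ± 0.452 CPM in mock (SD, n = 3 each), and rose by 5.69 and 4.96 on the log2 scale. Of 17 WRKY factors, 6 were higher and 1 lower, with WRKY18 at 2.53, WRKY40 at 2.82, WRKY45 at 3.70, and WRKY53, a factor of age-dependent senescence, at -2.88. CLH1, a chlorophyllase, rose by 5.89, and the pheophytinase PPH and the oxygenase PAO, the core steps of chlorophyll breakdown, by 2.11 and 1.78, so that 6 of 10 genes of that list were higher. Chlorophyll synthesis did not follow: of 13 genes only HEMA1 passed (log2 0.95). Of 23 nuclear photosynthesis genes, 10 were higher and 1 lower with a median log2 fold change of 0.15.

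Of 31 glutathione transferases, 14 were higher and 1 lower. GSTU4, GSTU5 and GSTU6, neighbours on chromosome 2, rose by 6.59, 2.66 and 2.91, and GSTF14 was the one that fell (3.77, 3.24 and 2.28 CPM with 2, against 32.0, 33.2 and 19.8 CPM in mock). The dehydroascorbate reductase DHAR1 rose by 3.78, and VTC5 and VTC2, which commit sugars to ascorbate, by 1.85 and 0.76. For anthocyanin, 9 of 16 enzymes were higher and 1 lower, led by LDOX (2.93), UF3GT (3.0), DFR (2.85) and UGT75C1 (2.59), and the MYB activators MYB75 and MYB113 rose by 3.21 and 6.64. FLS1, which diverts the pathway to flavonols, fell (log2 -1.88 ± 0.17), and the partner factors TT8 (1.12), GL3 (0.67) and EGL3 (0.25) did not pass.

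Salicylate genes did not move as one: 6 of 16 were higher and 2 lower. EDS5, the exporter of the salicylate precursor, rose by 2.12, and the glucanase PR2 by 6.38 (31.4, 13.3 and 22.1 CPM with 2, against 0.434, 0.301 and 0.0959 CPM in mock). ICS1, which makes that precursor, fell (log2 -0.88, a call lost without 2 replicate 2 (adjusted p = 0.10) or 2 replicate 3 (adjusted p = 0.18) or mock replicate 2 (adjusted p = 0.10)), as did WRKY70 (log2 -1.97, lost without mock replicate 2 (adjusted p = 0.22)). BSMT1, which methylates salicylate, averaged 7.42 ± 5.81 CPM with 2 on a single read in all of mock.

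Cell-wall loosening was the group with most falls. Of 27 xyloglucan endotransglucosylases, which cut and rejoin wall glucans, 18 were lower and 2 higher (median log2 -0.69), beside 14.2% lower among all genes. XTH31, the most significant of them, was read at 184, 119 and 144 CPM with 2, against 719, 679 and 717 CPM in mock. XTH4 was read at 124, 155 and 173 CPM with 2, against 490.3, 617 and 594 CPM in mock. The 2-treated libraries lay below all mock libraries, at means of 21.3% and 26.5% of mock, with fold changes of -2.23 ± 0.12 and -1.92 ± 0.11 on the log2 scale (adjusted p = 1.1e-16 and 3.2e-15, edgeR's quasi-likelihood test). XTH33 fell furthest (log2 -4.62, 0.385 ± 0.164 CPM with 2 and 8.93 ± 3.73 CPM in mock), followed by XTH5 (-3.05), XTH19 (-2.6) and XTH17 (-2.15), and XTH23 fell as well (-1.27), while XTH24 (1.14) rose. XTH25 also rose, with 0.520, 2.33 and 0.761 CPM with 2 and no reads in mock, at least 12.3-fold higher.

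Of 20 expansins, which loosen walls at acid pH, 9 were lower and 3 higher (median log2 -0.79). EXLA2 (-2.47), EXLA1 (-1.90) and EXPA15 (-1.49) fell, whereas EXPA10 was read at 235, 296 and 292 CPM with 2, against 37.9, 38.4 and 37.8 CPM in mock, and rose by 2.85 ± 0.14. Of 10 genes of primary wall cellulose synthesis, 5 were lower and none higher, among them CESA5 (log2 -0.94), CESA3 (-0.32) and COB (-0.46). Of 11 secondary wall genes only the laccase LAC4 passed, as lower. The genes that lost most CPM were GER3, a germin-like protein at 1361 ± 235 CPM with 2 and 3174 ± 90.3 CPM in mock, the extensin-like ELP (1247 ± 112 and 3057 ± 152 CPM, in the same order), AZI1, a lipid transfer protein (756 ± 260.1 and 2029 ± 84.0 CPM), AT2G45180 (3027 ± 493 and 4283 ± 559 CPM), and the wall protein EXT3 (1170.2 ± 119 and 2176 ± 234 CPM, SD, n = 3 each). At a mean of at least 1 log2 CPM, XTH33 was among the steepest falls of all genes, together with AT5G08760 (log2 -5.31), AT1G70985 (-4.71), the defensin PDF2.1 (-4.52), AT1G65490 (-4.45) and the ferric reductase FRO4 (-3.63).

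Some cell division genes were lower, by smaller amounts. Of 17 genes of the G1/S step and replication, 8 were lower and none higher (median log2 -0.46), and of 21 G2/M genes, 5 were lower and none higher (median log2 -0.33). PCNA1, the DNA polymerase clamp, was read at 37.8, 37.6 and 31.0 CPM with 2, against 52.8, 49.9 and 55.6 CPM in mock (log2 -0.56 ± 0.12). The helicase subunits MCM5 (-0.84) and MCM3 (-0.70), the mitotic activator CDC20.1 (-0.92) and the cyclin CYCA1;1 (-0.97) fell with every library left out in turn, as did PCNA1, and the other falls of both lists were lost without at least 1 library. KRP6 was the only CDK inhibitor of 9 to pass, as higher (log2 0.95). Among ribosomal protein genes 6 of 16 were lower, with the largest fall in RPL10B (log2 -0.51).

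Of 18 cytokinin response genes, 8 fell and 1 rose, with falls in the response regulators ARR7 (-1.02), ARR5 (-0.86), ARR8 (-0.80) and ARR16 (-0.90). The cytokinin-activating LOG1 rose by 1.48. Of 16 Casparian strip and suberin genes, 6 were lower and none higher, with the fatty acid hydroxylase CYP86A1 at -1.95, the reductase FAR1 at -2.48 and the scaffold CASP1 at -0.61. Of 15 clock genes 1 passed, ELF4 (log2 -0.36, lost without 2 replicate 1 (adjusted p = 0.13)). Brassinosteroid genes were lower for 5 of 11, with BEE1 and BEE3, factors of growth, at -1.25 and -1.51.

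Other lists held genes in both directions, beside 14.9% higher and 14.2% lower among all tested genes. Of 19 aquaporins, 9 were higher, led by PIP1;1 (1.87), PIP2;3 (1.77) and PIP2;4 (1.3) of the plasma membrane, and 3 were lower, TIP2;1 (-1.33), TIP2;2 (-1.44) and TIP2;3 (-1.06), all of the vacuole membrane. Of 8 cold genes, COR15A (5.11), COR15B (3.36), ZAT10 (3.06) and ZAT12 (1.73) rose, whereas COR47 (-1.29) and COR78 (-1.5) fell. In abscisic acid breakdown CYP707A1 rose (log2 2.97) and CYP707A2 fell (-3.49). For auxin, the synthesis enzyme TAA1 fell (-0.94), as did the repressors IAA7 (-1.04) and IAA19 (-1.113), whereas the 5 auxin synthesis genes of 14 that rose were the CYP79B and NIT genes above. Of 17 gibberellin genes, the receptors GID1B (1.5) and GID1A (0.89) and the DELLA repressor RGL3 (3.82) rose, and 4 fell, among them GA3OX1 (-1.02), which makes active gibberellin, and the responsive genes GASA6 (-2.06) and GASA4 (-0.63). In ethylene synthesis ACO1 fell (-2.19) and ACO3 rose (0.67).

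Genes for the transport of sugar and nitrogen moved in both directions too. Sugar transporters SWEET11 (1.06), SWEET12 (2.36), SWEET16 (2.01) and SWEET17 (1.82) rose, and SWEET2 fell (-0.97). Nitrate transporters NRT1.7 (1.61) and NRT1.8 (3.29), which move nitrate out of old leaves and out of the xylem, rose, and NRT1.5 (-1.77), which loads it into root xylem, fell. ASN1, already among the largest rises, was read at 62.0, 208 and 153 CPM with 2, against 1.01, 0.902 and 0.384 CPM in mock. Of 17 iron genes 5 were higher and 5 lower, with the root importer IRT1 lower (log2 -2.95) in a call lost without 2 replicate 1 (adjusted p = 0.13) or mock replicate 2 (adjusted p = 0.15). Of 13 reference genes used for normalisation in plants, UBQ10 was higher (log2 0.60) and 5 were lower.

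Genes that rose lay beside each other more often than all tested genes did. As a description, with no test, the next tested gene along the chromosome was upregulated for 149 of 980 upregulated genes (15.2%), against 4.92% of all, and downregulated for 6.29% of downregulated genes, against 3.19% of all. Only 7 pairs of upregulated neighbours and 1 pair of downregulated ones overlapped, where a read can count for both genes. Among the 2 nearest tested genes on each side, an upregulated one stood beside 34.3% of upregulated and 17.1% of all genes, and a downregulated one beside 19.2% of downregulated and 11.8% of all genes. Runs included the enzymes of the root triterpenes thalianol (AT5G47980, CYP705A5, CYP708A2 and THAS1, log2 1.95 to 2.38) and marneral (CYP705A12, CYP71A16 and MRN1, log2 2.68 to 4.41) on chromosome 5, the lectins MBP1 and MBP2 with AT1G52000 on chromosome 1 (6.19 to 6.90), and the methionine sulfoxide reductases MSRB7, MSRB8 and MSRB9 on chromosome 4 (3.02 to 5.03). The longest run that fell held 5 genes from AT1G65484 to AT1G65510 (log2 -4.45 to -1.56).

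Most genes that changed with 2 in jaz9-1 had the same sign of response in wild-type Col-0, and few differed by test. With 3 libraries per group, a gene that did not differ by test is not thereby shown to respond alike. Of the 986 genes upregulated in jaz9-1, 725 were also upregulated in Col-0, which is 73.5% of the jaz9-1 set and 78.7% of the 921 in Col-0. Of the 640 downregulated genes, 273 were downregulated in Col-0, 42.7% of the jaz9-1 set and 48.7% of the 561 in Col-0. The 640 had a median log2 fold change of -2.08 in jaz9-1 and -1.33 in Col-0, and the 986 had 2.42 and 2.21. Both sets were chosen by their change in jaz9-1. Log2 fold changes in jaz9-1 and Col-0, which share no library, correlated at 0.688 across 20109 genes, which are not independent, and 5277 of the 5865 genes that changed in jaz9-1 (90.0%) had the same sign in Col-0. A difference in crossing a threshold was seldom a difference by test: 12 of the 261 genes upregulated in jaz9-1 alone and 7 of the 367 downregulated in jaz9-1 alone differed between genotypes in the interaction term of edgeR's quasi-likelihood test.

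That interaction called 96 genes (0.477%) with a more positive response in jaz9-1 and 53 (0.264%) with a more negative one. Among the 96, 29 fell in Col-0 only, 22 rose in jaz9-1 only, 16 fell in both and 16 rose in both, and 13 rose in jaz9-1 and fell in Col-0. Among the 53, 22 rose in both, less in jaz9-1, and 20 fell in jaz9-1 only. These counts depended on single libraries more than any other here, with 582 more positive and 689 more negative genes without 2-treated jaz9-1 replicate 1, and 27 to 140 and 24 to 81 without each of the other 11 libraries, where all but mock jaz9-1 replicate 2 lowered both counts.

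Sulfur and glucosinolate genes stood among the lower responses in jaz9-1, with 4 of 16 sulfate assimilation genes and 3 of 13 aliphatic glucosinolate genes called. CYP79F1, read at 60.8 ± 8.19 CPM with 2 and 121 ± 3.2 CPM in mock in jaz9-1, was at 55.8 ± 0.589 CPM with 2 and 47.3 ± 7.02 CPM in mock in Col-0 (SD, n = 3 each). Its response was more negative in jaz9-1 by 1.22 on the log2 scale (interaction -1.22 ± 0.15, adjusted p = 3.5e-05, edgeR's quasi-likelihood test), with the 2-treated means close between genotypes and the mock means apart. APK1 and APK2 rose in both genotypes, by 1.960 and 2.04 in jaz9-1 and by 2.92 and 3.15 in Col-0, with interactions of -0.96 ± 0.14 and -1.107 ± 0.15 (adjusted p = 0.00061 and 0.00022). CYP79B2 (-0.91), the cytochrome b5 CB5-C (-1.2) and the oxygenase FMO GS-OX3 of aliphatic glucosinolates (-1.77) differed the same way. TT19, a transferase that carries anthocyanin to the vacuole, rose by 2.05 in jaz9-1 and by 4.85 in Col-0, with mock at 15.9 ± 2.67 CPM and 1.81 ± 0.540 CPM.

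MYBL2, a repressor of anthocyanin synthesis, had 11.0 ± 1.64 CPM with 2 and 10.4 ± 1.35 CPM in mock in jaz9-1, against 7.12 ± 1.47 and 24.2 ± 2.38 CPM in Col-0, where it fell, and its interaction was 1.81 ± 0.27 (adjusted p = 0.00070, edgeR's quasi-likelihood test). TH8, a thioredoxin, rose by 4.77 in jaz9-1 and 1.17 in Col-0, with mock at 1.15 ± 0.963 CPM and 11.0 ± 5.01 CPM. CRY1, the blue light receptor, rose in jaz9-1 (0.40) and fell in Col-0 (-0.46). JAZ9 rose less in jaz9-1 (43.7 ± 7.58 CPM with 2) than in Col-0 (179.6 ± 9.59 CPM), with mock at 2.69 ± 0.802 and 4.24 ± 1.07 CPM, and the interaction of -1.40 ± 0.32 (adjusted p = 0.046) was lost without Col-0 mock replicate 3 (adjusted p = 0.14) or jaz9-1 mock replicate 1 (adjusted p = 0.19). For JAZ1, JAZ10, AOS, LOX2, VSP1 and BGLU18 the interaction lay between -0.43 (BGLU18, 95% interval -0.79 to -0.07) and 0.47 (LOX2, 0.11 to 0.84) and did not pass.

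**Figure D4:**
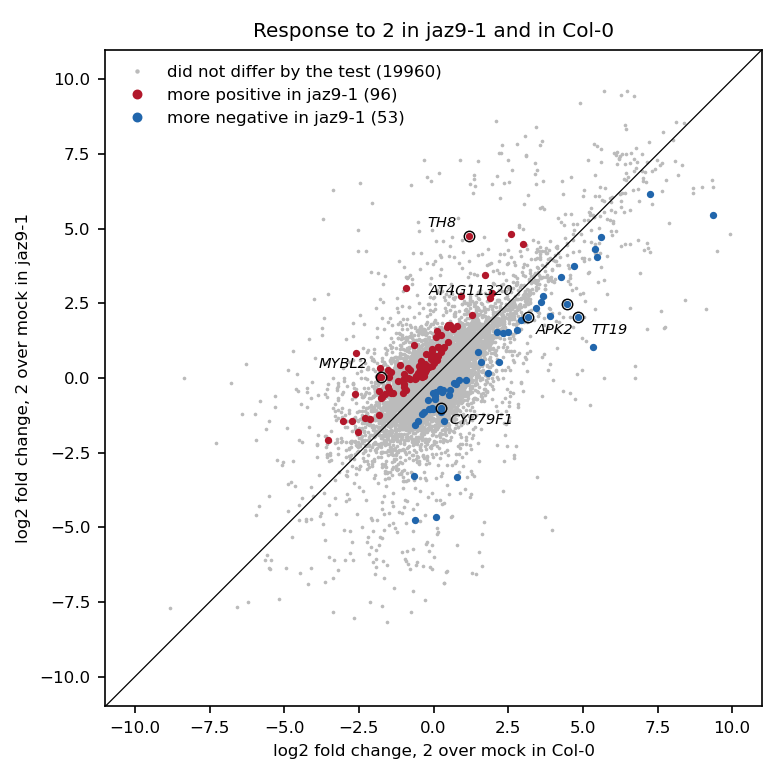
Log2 fold change of 2 over mock in jaz9-1 (vertical axis) against that in Col-0 (horizontal axis), 1 point for each of 20109 genes, with the line of equal response. The 96 genes with a more positive response in jaz9-1 are red, the 53 with a more negative one blue and 19960 grey; CYP79F1 (interaction -1.22) lies below the line and MYBL2 (1.81) above it.

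Compounds 2e and 12, given to the same mutant at the same dose and time, changed far fewer genes than 2. Both are compared with the same mock libraries as 2, so the side by side values below are not independent. Against mock, 3006 genes were higher and 2859 lower with 2, beside 348 and 49 with 2e and 405 and 97 with 12. Tested directly, 2683 genes (13.3%) were higher and 2444 (12.2%) lower with 2 than with 2e, and 2566 (12.8%) were higher and 2293 (11.4%) lower with 2 than with 12. The 986 genes upregulated by 2 had a median log2 fold change over mock of 0.66 with 2e and 0.64 with 12, and 826 of them were higher with 2 than with 2e and 829 higher with 2 than with 12. Of the 640 downregulated genes, 482 were lower with 2 than with 2e and 455 lower with 2 than with 12.

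How much of the response to 2 the other compounds shared varied between genes. VSP1 averaged 4032 ± 1016 CPM with 2, 40.1 ± 9.17 CPM with 2e, 37.7 ± 8.05 CPM with 12 and 33.3 ± 4.1 CPM in mock (SD, n = 3 each), and NATA1 2683 ± 299.7, 21.2 ± 1.45, 18.5 ± 3.36 and 18.4 ± 3.3 CPM in the same order. Neither 2e nor 12 changed either gene by test, and 2 exceeded 2e by 6.64 ± 0.20 and 6.99 ± 0.20 on the log2 scale. Other wound and insect defence genes did respond: of the 9 tested, 5 were higher than mock with 2e and 3 with 12, and none was lower. VSP2 rose over mock by 1.05 with 2e on the log2 scale and did not pass with 12. CORI3 rose by 1.22 with 2e and passed as higher with 12 too. All 9 were higher with 2 than with either compound. JAZ10 averaged 719.6 ± 125 CPM with 2, 14.9 ± 2.52 CPM with 2e and 16.5 ± 3.15 CPM with 12, all above its mock values given earlier. Of 13 JAZ genes, 6 were higher than mock with 2e and 8 with 12. JAZ1 rose over mock by 4.11 with 2, 1.88 with 2e and 1.95 with 12, AOS by 5.44, 2.07 and 2.39, and JOX2 by 5.53, 2.6 and 2.46. For these 3 genes 2 still exceeded 2e by 2.22, 3.37 and 2.92 (adjusted p = 2e-18, 1.2e-20 and 5e-19, edgeR's quasi-likelihood test).

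Genes lower with 2 than with the other compounds were found in many lists, beside 12.2% of all tested genes against 2e and 11.4% against 12. Of 27 xyloglucan endotransglucosylases, 17 were lower and 1 higher with 2 than with 2e, and 14 were lower and 2 higher than with 12. Aliphatic glucosinolate genes and the ERF and ORA branch are described here. Of 13 aliphatic glucosinolate genes, 5 were higher than mock with 2, against 12 with compound 2e and the same number with compound 12, and 8 were lower with 2 than with 2e and 9 lower with 2 than with 12. CYP79F1 averaged 60.8 ± 8.19 CPM with 2, 202 ± 21.2 CPM with 2e, 239 ± 9.12 CPM with 12 and 121 ± 3.2 CPM in mock, and the log2 difference of 2 from 2e was -1.72 ± 0.10 and of 2 from 12 -1.97 ± 0.10 (adjusted p = 1.3e-14 and 5.5e-16, edgeR's quasi-likelihood test). CYP83A1 differed by -1.25 and -1.33, and IPMI1 by -1.3 and -1.3, in the same order.

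In the ERF and ORA branch, 5 of 14 genes were lower with 2 than with 2e and 2 were higher, and 3 were lower with 2 than with 12 and 2 higher. Among all tested genes, 12.2% were lower and 13.3% higher with 2 than with 2e, and 11.4% lower and 12.8% higher than with 12. The counts of higher genes in the branch were near those shares, and some of the lower calls rested on single libraries. ERF2, an ethylene response factor, was lower with 2 than with 2e (log2 -1.73) and than with 12 (-1.49), whereas PDF1.2 was higher with 2 (2.26 and 2.58). The chitinase CHI-B was lower with 2 as well (-0.80 and -1.12), where the call against 2e was lost without 2 replicate 1 (adjusted p = 0.28) or 2e replicate 1 (adjusted p = 0.18). HEL rose with every compound, by 0.95 with 2, 0.96 with 2e and 1.23 with 12, and the differences of 2 from 2e (-0.01, 95% interval -0.43 to 0.41) and from 12 (-0.29, -0.71 to 0.13) did not pass. PDF1.3 did not differ by test between 2 and 2e (-0.37, -1.32 to 0.58) or 12 (0.10, -0.91 to 1.113). ORA59 was higher than mock with 2e (1.40) and 12 (1.46), and lower with 2 than with 2e by a log2 difference of -0.69 (adjusted p = 0.095, edgeR's quasi-likelihood test), a call lost without 2 replicate 1 (adjusted p = 0.23) or 2 replicate 3 (adjusted p = 0.25) or 2e replicate 1 (adjusted p = 0.42) or 2e replicate 2 (adjusted p = 0.21). Its difference of 2 from 12 was -0.75 (adjusted p = 0.072), lost without 12 replicate 2 (adjusted p = 0.33) or 2 replicate 1 (adjusted p = 0.19) or 2 replicate 3 (adjusted p = 0.20). AACT1 was lower with 2 than with 2e (log2 -0.93, adjusted p = 0.067), lost without 2 replicate 1 (adjusted p = 0.24) or 2 replicate 3 (adjusted p = 0.17) or 2e replicate 1 (adjusted p = 0.53).

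**Figure D5:**
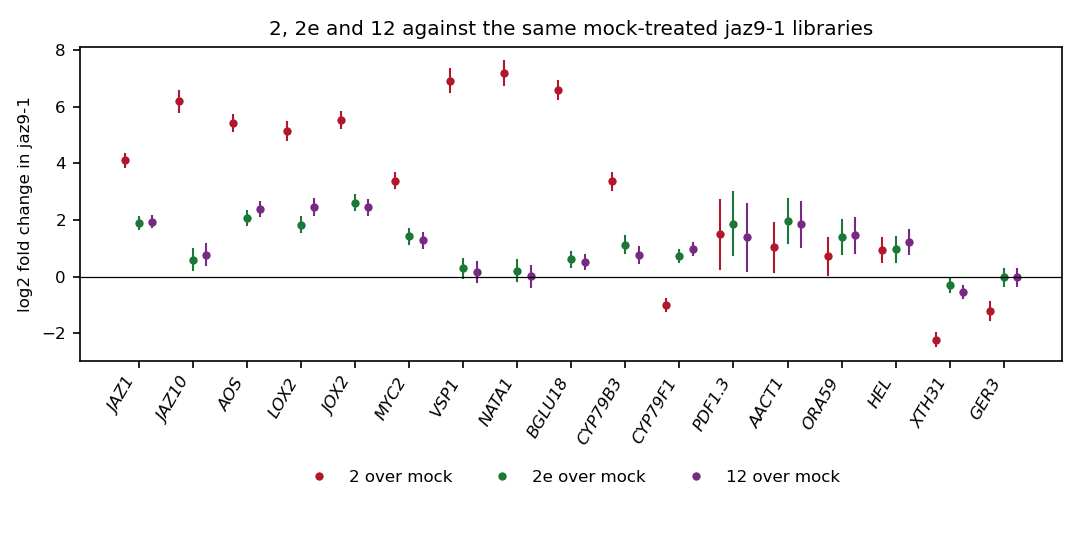
Log2 fold change over the same mock libraries in jaz9-1, with 95% intervals, for 17 genes under compounds 2, 2e and 12 (n = 3 libraries each). 2 stands well above the others for VSP1 (6.93 with 2, 0.29 with 2e and 0.17 with 12) and below them for CYP79F1 (-0.99, 0.73 and 0.98).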

How the data were processed

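Per the labels, total RNA of whole seedlings was made into libraries with a TruSeq kit, and Lasy-Seq is named beside it. The study's methods give Lasy-Seq and paired-end sequencing. The authors deposited raw counts per gene, made with Trimmomatic, HISAT2 and featureCounts on TAIR10, with 3 biological replicates per group. Per the study's methods, counting was strand-specific over whole gene models, took primary alignments only and counted a read over several genes for each. A deposited table of normalised values, in which 8 values per gene carry no name, was not used.

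Counts as deposited were fitted for all 24 libraries with edgeR 4.0.16 in R 4.3.3 (limma 3.58.1), 1 coefficient per group, after filterByExpr, which left 20109 genes, and TMM scaling. P-values of the quasi-likelihood F-tests were Benjamini-Hochberg adjusted across the 20109 genes. Standard errors are the log2 fold change over the square root of F, and CPM are relative to TMM-scaled library totals. The biological coefficient of variation was 0.186. Genes of chromosomes 1 to 5 were matched to RefSeq's TAIR10.1 annotation by locus (26719 of 27416 matched), and its sequence was read for windows of 300 bases before each start. The scripts were tested on simulated data.

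The comparison and the 61 gene lists were chosen with earlier results of these data known. The lists, recalled from general knowledge, had 833 members matched and 22 without a unique match. No list, motif or neighbour share was tested. The genes named are JAZ9 and its neighbours, genes the study names for its RNA sequencing, in each list the 6 most significant members that passed and members of lists of 15 or fewer that did not pass, in either direction the 15 steepest changes at a mean of at least 1 log2 CPM with no overlap, up to 10 per direction with the largest CPM gain or loss, with the lowest adjusted p or in the genotype difference, and up to 8 in the comparisons with 2e and 12. Genes named outside that rule were chosen after their values were seen: ACX1, AOC3, APS3, CYP81F2, CYP94B3, DFR, ESM1, EXPA1, IRT1, JAR1, JAZ7, JAZ8, JAZ12, JAZ13, JMT, JOX1, LSU1, NAI1, PAI1, PDF1.2b, SIR, SOT16, ST2A, SWEET2, SWEET11, TGG2, THI2.1, TIP2;2, TIP2;3, XTH23, XTH24 and XTH25, and the runs of neighbouring genes with their members. A gene that the rule names is not reported here. Alternatives were DESeq2 1.42.0, another scaling, no count filter, only the libraries compared, equal depth, no organelle genes, a stricter threshold, a replicate block, and each library left out, and, for motifs and neighbours, the gene's strand alone and the 2 nearest genes on each side.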

Additional observations from a re-analysis of the deposited data

Results flagged for a closer look

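Responses to 2 that differed between jaz9-1 and Col-0 were marked for a closer look by the interaction term of edgeR's quasi-likelihood test at an adjusted p below 0.1. Values are the log2 fold change of 2 over mock in jaz9-1 minus that in Col-0. Among jasmonate genes they were -1.40 for JAZ9, -3.90 for JAZ13 and 1.49 for ST2A. The JAZ9 value was lost without Col-0 mock replicate 3 (adjusted p = 0.14) or jaz9-1 mock replicate 1 (adjusted p = 0.19), and that of JAZ13 without Col-0 mock replicate 3 (adjusted p = 0.12) or jaz9-1 mock replicate 2 (adjusted p = 0.27). JAZ13 averaged 13.3 ± 0.865 CPM with 2 and 0.279 ± 0.178 CPM in mock in jaz9-1, against 39.4 ± 2.87 and 0.0542 ± 0.0558 CPM in Col-0, so its value rests on mock levels near 0. The ST2A value was lost without any of 10 of the 12 libraries compared, taken one at a time, with the highest adjusted p, 0.31, without jaz9-1 2 replicate 2.

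In glucosinolate and sulfur genes the values were -1.22 for CYP79F1, -0.91 for CYP79B2, -0.62 for SOT17, -1.77 for FMO GS-OX3, 1.08 for the methyltransferase IGMT4, -0.96 for APK1, -1.107 for APK2 and -1.2 for CB5-C. LSU1, a gene of sulfur starvation, had -4.32, at 5.04 ± 1.73 CPM with 2 and 2.64 ± 1.99 CPM in mock in jaz9-1 and 12.4 ± 1.62 and 0.269 ± 0.149 CPM in Col-0. SOT17 was lost without any of 9 of the 12 libraries compared, with the highest adjusted p, 0.16, without jaz9-1 2 replicate 2.

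Anthocyanin genes were marked in both directions, TT19 at -2.81 and MYBL2 at 1.81. Expansins were marked at 0.90 for EXPA10, 0.86 for EXPA1 and -0.83 for EXPA4. EXPA10 was lost without Col-0 2 replicate 1 (adjusted p = 0.11), EXPA1 without any of 5 libraries (adjusted p up to 0.13, Col-0 2 replicate 1) and EXPA4 without any of 8 (up to 0.21, jaz9-1 mock replicate 1).

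The remaining values were 1.74 for KTI1, 3.59 for TH8, 1.09 for the senescence gene SAG21, 1.2 for the vacuolar malate transporter TDT, 0.87 for CRY1, 1.46 for GASA6, 0.52 for AT2G45180, 0.86 for the salicylate glucosyltransferase UGT74F2, -1.97 for AT4G11320, -4.14 for AT1G76620, 1.66 for AT1G78830, 0.97 for AT5G59540, -1.63 for AT1G07050 and -0.90 for AT2G43550. AT1G76620 averaged 0.173 ± 0.198 CPM with 2 and 6.68 ± 4.4 CPM in mock in jaz9-1, near the limit of detection with 2. GASA6 was lost without any of 8 of the 12 libraries compared, with the highest adjusted p, 0.27, without jaz9-1 2 replicate 2, and AT2G45180 without any of 7, with the highest, 0.22, without jaz9-1 mock replicate 1.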

How the results depend on the processing

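In 2-treated against mock jaz9-1, leaving out each library in turn gave 2629 to 3141 genes higher, 2318 to 3166 lower, 935 to 1027 upregulated and 554 to 865 downregulated. With only the libraries compared in the fit, 2006 genes were higher, 1527 lower, 828 upregulated and 400 downregulated. DESeq2 called 3201 higher and 2935 lower, RLE scaling 3076 and 2766, no count filter 2932 and 2729, equal depth 2883 and 2616, and no organelle genes 3062 and 2785. Rises made up 51.3% of the calls, and 49.8% to 56.8% across settings. The replicate block gave 2997 higher, 2875 lower, 986 upregulated and 625 downregulated. Deviations of same-numbered 2-treated and mock libraries correlated at only 0.020, 0.037 and 0.0073, although each library correlated best with its own number. Values this small do not settle whether replicate numbers pair the samples, and the main fit did not pair them.

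The genotype difference moved most. It called 172 genes more positive and 118 more negative with DESeq2, 368 and 300 with no count filter, 32 and 27 with only the libraries compared, 42 and 24 at a false discovery rate of 0.05, and 11 and 12 with the smallest library of both jaz9-1 treatments left out, an alternative chosen after seeing the data. Leaving out each library gave 27 to 582 and 24 to 689. Between compounds, leaving out each library gave 2238 to 2921 genes higher and 1869 to 2839 lower with 2 than with 2e, and 2133 to 2783 and 1828 to 2715 with 2 than with 12. With only the libraries compared, the counts were 1774 and 1232 for 2 against 2e, and 1733 and 1225 for 2 against 12. On the strand of the gene alone AACGTG stood before 11.1% of upregulated, 4.87% of downregulated and 4.74% of all genes, and the shares of the other motifs that do not read the same on both strands were lower as well. The causes of the shifts in counts were not tested. No named gene changed direction among its calls.

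Depth limits the smallest libraries, 6226126 reads with 2 and 6825267 in mock, where a gene at 3 reads over a treatment stands near 0.1 CPM. Groups of 3 give wide intervals for low genes.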
